A study of Arabidopsis thaliana with 50 samples.

Results

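Of the B-box (BBX) transcription factors of structural clades IV and V, 10 genes among the 37338 genes counted were followed as a group. They were chosen by their gene identifiers, as BBX20 (AT4G39070), BBX21 (AT1G75540), BBX22 (AT1G78600), BBX24 (AT1G06040) and BBX25 (AT2G31380) of clade IV and BBX28 (AT4G27310), BBX29 (AT5G54470), BBX30 (AT4G15248), BBX31 (AT3G21890) and BBX32 (AT3G21150) of clade V. BBX18, BBX19, BBX23, BBX26 and BBX27 of the same clades were not part of the group. All 10 members were present in each of the 50 count files.

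The study sequenced mRNA from whole Arabidopsis thaliana seedlings aged 8 days, in mutants of the Mediator kinase module subunits MED12 and MED13, with and without loss of the silencing factor MORC1 or of DNA methyltransferases. In the light experiment, med12 (allele cct-2) and wild-type Col-0 seedlings were grown for 7 days in long days, moved to darkness for 24 h and collected either after 15 min of light or still in the dark, with 3 libraries in each of the 4 groups. In long days there were 4 libraries each of med12 (cct-2), med13 (allele gct-2) and Col-0, none of which carried the SDC:GFP reporter transgene. Both cct-2 and gct-2 are T-DNA insertion alleles. A second long-day series held morc1/med12 (3 libraries, a frame shift in MED12 made with CRISPR-Cas9) with 3 morc1 libraries numbered 5 to 7, morc1/med13 (4 libraries, made by crossing in gct-2) with 4 morc1 libraries numbered 1 to 4, ddc/med13 (4 libraries, MED13 mutated with CRISPR-Cas9), the drm1/drm2/cmt3 triple mutant ddc (4 libraries) and the SDC:GFP wild type (4 libraries). From the study's account of how its lines were made, this series is taken to carry the SDC:GFP reporter throughout. Among its sample titles, only those of the wild type name the reporter. The morc1 lines carried the morc1-4 T-DNA allele, and the double mutants and their controls therefore differed in background from med12, med13 and Col-0 in transgene as well as in genotype. The methods of the study say that all plants were grown side by side and collected together, and the labels give no harvest times.

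B-box proteins carry a zinc-binding domain that mediates contacts with other proteins. In seedlings, many of those in clades IV and V act with the bZIP factor HY5 in the switch from growth in darkness to growth in light, and the ubiquitin ligase COP1 removes several of them in the dark. BBX20, BBX21 and BBX22 are known as promoters of photomorphogenesis, BBX24, BBX25, BBX28, BBX30, BBX31 and BBX32 mostly as its repressors. BBX30 and BBX31 are small proteins that bridge the flowering regulator CONSTANS to the co-repressor TOPLESS.

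The proteins encoded in RefSeq (TAIR10.1) are described here by structural clade. A zinc-binding spacing pattern of the B-box was found in 2 copies in each clade IV member, whose proteins had 238 (BBX25) to 331 (BBX21) residues, and in 1 copy in each clade V member. BBX30 and BBX31 were the shortest, with 117 and 121 residues, and a short TOPLESS-binding motif began at residue 113 of BBX30 and residue 117 of BBX31. The closest pair was BBX24 and BBX25, with 72.7% of the residues of the shorter protein identical in a global alignment, followed by BBX30 and BBX31 with 65% and BBX28 and BBX29 with 58.1%.

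**Figure D1:**
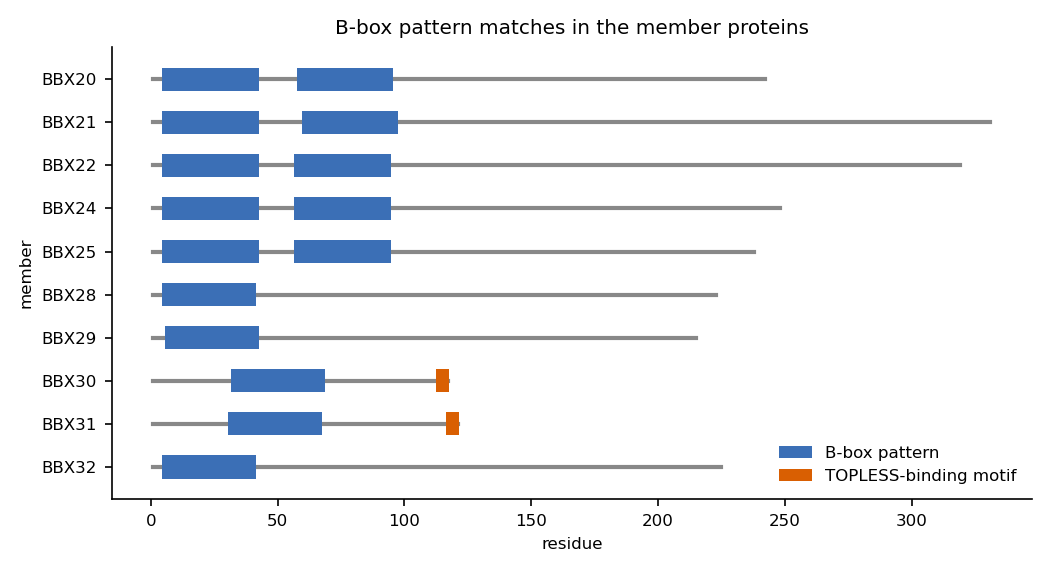
Matches to the B-box spacing pattern along the 10 member proteins, with the residue number on the horizontal axis and one member in each row. Blue blocks are pattern matches and orange blocks the short TOPLESS-binding motif; the grey line spans the protein, from 117 residues in BBX30 to 331 in BBX21. Clade IV members show 2 blocks and clade V members 1.

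In RefSeq (TAIR10.1) coordinates, the other members span chr4:18204631-18206684 (BBX20, minus strand), chr1:28365824-28367738 (BBX21, plus), chr1:29566863-29568931 (BBX22, plus), chr2:13381767-13383470 (BBX25, plus), chr4:13675537-13677055 (BBX28, plus) and chr3:7412445-7413727 (BBX32, minus), all protein-coding. Upstream sequence is shown for 4 members that the results turn on: BBX24, the closest relative of BBX25, with a fold change after light below the threshold, BBX29, which rose after light in Col-0, and the pair BBX30 and BBX31, the small proteins whose group means were most like each other. Each is the 300 bases before the annotated start of the gene on its own strand (RefSeq, TAIR10.1), 5′ to 3′. Capitals mark the ACGT core bound by bZIP factors such as HY5, the G-box CACGTG, and the evening element AAAATATCT. BBX24 lies on chromosome 1 (window chr1:1829984-1830283, minus strand), BBX29 on chromosome 5 (chr5:22115540-22115839, minus strand), BBX30 on chromosome 4 (chr4:8708541-8708840, plus strand) and BBX31 on chromosome 3 (chr3:7709934-7710233, minus strand).
BBX24: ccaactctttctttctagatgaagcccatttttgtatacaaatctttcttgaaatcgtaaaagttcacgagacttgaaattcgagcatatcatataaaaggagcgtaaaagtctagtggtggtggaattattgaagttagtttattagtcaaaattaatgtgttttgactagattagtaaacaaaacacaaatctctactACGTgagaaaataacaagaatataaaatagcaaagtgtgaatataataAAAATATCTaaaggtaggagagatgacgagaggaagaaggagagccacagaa
BBX29: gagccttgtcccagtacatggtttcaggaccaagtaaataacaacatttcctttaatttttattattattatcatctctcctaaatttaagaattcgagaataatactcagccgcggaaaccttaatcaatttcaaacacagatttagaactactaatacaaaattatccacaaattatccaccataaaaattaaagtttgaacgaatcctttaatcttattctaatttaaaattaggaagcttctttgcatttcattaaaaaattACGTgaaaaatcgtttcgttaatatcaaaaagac
BBX30: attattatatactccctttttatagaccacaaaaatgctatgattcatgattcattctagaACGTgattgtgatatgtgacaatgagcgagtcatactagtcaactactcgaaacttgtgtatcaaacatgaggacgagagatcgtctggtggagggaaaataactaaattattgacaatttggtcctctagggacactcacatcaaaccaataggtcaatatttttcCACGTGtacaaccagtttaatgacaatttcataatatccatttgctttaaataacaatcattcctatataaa
BBX31: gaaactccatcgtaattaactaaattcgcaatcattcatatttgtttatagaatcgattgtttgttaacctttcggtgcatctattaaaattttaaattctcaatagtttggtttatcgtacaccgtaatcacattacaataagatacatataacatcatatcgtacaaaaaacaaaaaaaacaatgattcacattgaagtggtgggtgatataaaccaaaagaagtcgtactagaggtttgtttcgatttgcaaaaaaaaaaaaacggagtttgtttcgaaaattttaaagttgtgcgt

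On both strands of these windows, the G-box was found in 1 of the 10 members, BBX30 at position -72 from the gene start, against 7.09% of the 27443 protein-coding genes with such a window. The ACGT core, which the G-box contains, was found in 5 of 10 members (BBX20, BBX24, BBX28, BBX29 and BBX30), against 49% of all windows. The evening element was found in BBX24 alone, at position -52, against 2.79% of all windows, and the related hexamer CACGTT in BBX30 alone, at position -240, against 8.71%. BBX31 held none of these motifs. The windows of BBX22, BBX25 and BBX32 reach into a neighbouring gene, 50, 5 and 48 bases away, and are not shown.

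Libraries held 2767761 to 6786822 counts in genes and transposable elements. Values are given as CPM, the count of a gene relative to a fixed total per library, scaled with TMM factors over all 50 libraries. Read duplicates had been removed from single-end reads by the authors, which lowers high values more than low ones, and the most densely covered members reached 0.476 (BBX24), 0.440 (BBX21) and 0.369 (BBX28) counts per exonic base. MED12 had 60.4 to 68.2 CPM in the med12 libraries of both experiments, against 162 to 199 CPM in Col-0, while MED13 had 115 to 129 CPM in med13 against 104 to 113 CPM in Col-0 in long days, so the MED13 count does not check the med13 label. All 3 shoot markers and all 3 root markers were detected in every library, and the 3 flower markers stayed at or below 1.37 CPM. The 3 seed storage and oil body genes summed to higher median values in every group with a med12 or med13 mutation than in its control, and those sums are given beside the results.

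Per kilobase of exon, BBX24 was the most abundant member over all 50 libraries (mean 70.2 CPM per kb), followed by BBX21 (57.6), BBX22 (36.3), BBX28 (32.7), BBX25 (20.7), BBX20 (12.5) and BBX29 (7.29). BBX30, BBX31 and BBX32 were scarce, at 1.95, 1.54 and 1.45 CPM per kb, and had no count at all in 26, 7 and 10 of the 50 libraries. BBX32 overlaps its neighbour AT3G21140 by 13 bases on the same strand, where a read could not be assigned to either gene, and BBX30 and BBX31 lie 284 and 486 bases from the B-box genes BBX9 and BBX10. BBX24 overlaps the antisense gene AT1G06045, from which the strand of the reads separates it.

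The members differed widely in how much they varied. BBX21, which acts with HY5 in seedlings, was the steadiest, with group means from 74.9 CPM in med12 in long days to 111 CPM in ddc, a ratio of 1.48 over the 14 groups. The ratio of the highest to the lowest group mean was 2.25 for BBX22, 6.46 for BBX24, 9.13 for BBX20, 28.7 for BBX25, 34.2 for BBX28, 75.5 for BBX32, 135 for BBX29 and 164 for BBX31, and BBX30 had a lowest group mean of 0. BBX21 was among the most densely covered members. Libraries held 5921442 to 6436349 counts in med12 in long days and 2767761 to 3340821 in ddc. The part of depth and duplicate removal in this ranking was not tested. When the 14 groups were ordered by mean, the libraries of neighbouring groups did not overlap in 1 of 13 neighbouring pairs for BBX21, in 2 of 13 for BBX30, BBX31 and BBX32, in 3 of 13 for BBX20 and BBX22, in 4 of 13 for BBX24 and in 5 of 13 for BBX25, BBX28 and BBX29. For most neighbours in each order no difference beyond the spread of the libraries was seen. BBX20 had its highest means in ddc (39.5 CPM) and Col-0 in long days (38.0 CPM), where BBX25 had its lowest (5.49 CPM in ddc and 2.23 CPM in Col-0).

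After 15 min of light, 4 of the 8 members tested were called higher in Col-0 than in Col-0 kept dark, and none lower. A call here and below means a change of more than 1.5-fold with a Benjamini-Hochberg adjusted p under 0.05 in edgeR's quasi-likelihood test. Over all features tested, 1.94% were called higher and 0.934% lower, and the median log2 fold change was 0.43 over the 8 members against -0.00 over all features. Libraries of one group in this experiment agreed within sampling noise (chi-square per degree of freedom 0.876 to 0.991), so its p-values measure the spread between these libraries, which may be technical. The study describes these libraries as biologically independent. In whole seedlings, fewer cells of a type and less RNA per cell cannot be told apart.

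Among the positive regulators, BBX22 was the one that responded. It had 72.5, 70.2 and 71.9 CPM in light-treated Col-0, against 44.1, 46.5 and 47.3 CPM in dark Col-0, with no overlap and a log2 fold change of 0.63 (SE 0.0419, adjusted p = 3.1e-16). BBX20 had 25.4, 25.4 and 24.6 CPM in light-treated and 21.5, 22.8 and 21.7 CPM in dark Col-0 (log2 fold change 0.19, adjusted p = 0.2). BBX21 had 95.9, 94.0 and 99.4 CPM in light-treated and 99.3, 103 and 97.5 CPM in dark Col-0, and the groups overlapped (log2 fold change -0.06, adjusted p = 0.5). BBX20, unlike BBX21, was higher in every light-treated library, but BBX22 alone of the 3 passed the test.

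Of BBX24 and BBX25, also called STO and STH and the closest pair of proteins, BBX25 was called and BBX24 was not; the difference between them was not tested. BBX25 had 46.0, 47.5 and 48.4 CPM in light-treated Col-0, against 25.05, 24.7 and 21.7 CPM in dark Col-0, a 1.98-fold rise (log2 0.98, SE 0.0580, adjusted p = 7.2e-18). BBX24 had 101, 99.9 and 111 CPM in light-treated and 84.2, 88.5 and 85.5 CPM in dark Col-0. Its light-treated libraries all lay above the dark ones, with a log2 fold change of 0.26 (adjusted p = 1.0e-06) that stayed below 1.5-fold.

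In clade V, BBX29 and BBX32 passed the test and BBX28 did not. BBX29 had 30.5, 30.1 and 29.9 CPM in light-treated Col-0, against 19.5, 20.95 and 19.2 CPM in dark Col-0 (log2 fold change 0.60, SE 0.0678, adjusted p = 5.7e-09). Its fold of 1.52 lay just past the threshold, and the call was lost without dark replicate 3 (log2 fold change 0.58). BBX28, a repressor that binds HY5, had 75.8, 72.2 and 78.0 CPM in light-treated Col-0, against 73.2, 72.8 and 72.4 CPM in dark Col-0, with overlapping libraries (log2 fold change 0.04, adjusted p = 0.7).

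The scarce members had the highest ratios and the fewest counts. BBX32, which interferes with BBX21 and HY5, had 21, 11 and 17 counts in light-treated Col-0, against 2, 3 and 4 counts in dark Col-0 (log2 fold change 2.35, SE 0.416, adjusted p = 3.8e-05). BBX30 had 10, 13 and 5 counts in light-treated Col-0, against 0, 0 and 1 count in dark Col-0, and was too low to be tested, like BBX31 with 8, 12 and 3 counts against 2, 1 and 2 counts. The summed counts, scaled by library size, gave ratios of light to dark of 5.27 for BBX32 (95% exact interval 2.56 to 12.2), 27.1 for BBX30 (4.48 to 1107.5) and 4.45 for BBX31 (1.65 to 15.0), intervals that cover counting error only. All 3 were higher in every light-treated than in every dark library of Col-0, and the share of all features so separated was not computed.

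In med12, the same 15 min of light gave no member past the threshold, of 8 tested, and the median log2 fold change of the members was 0.18 against 0.00 over all features. Over all features, 0.783% were called higher and 0.986% lower. EdgeR gave an unadjusted p under 0.05 for 6 of 8 members and an adjusted p under 0.05 for 4 of 8, and DESeq2 also called none past 1.5-fold. The share of all features under either p cut-off was not computed, so these counts are no result about the members. BBX25 had 33.3, 33.0 and 36.3 CPM in light-treated med12, against 28.1, 25.7 and 25.5 CPM in dark med12, without overlap (log2 fold change 0.37, adjusted p = 3.0e-04).

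BBX29 had 19.8, 20.6 and 19.5 CPM in light-treated med12, against 14.5, 14.6 and 15.5 CPM in dark med12 (log2 fold change 0.42, adjusted p = 0.0031), and BBX24 a log2 fold change of 0.17 (adjusted p = 0.015). BBX22 had 40.8, 44.0 and 42.5 CPM in light-treated med12, against 35.5, 35.8 and 40.2 CPM in dark med12 (log2 fold change 0.19, adjusted p = 0.086). These libraries did not overlap for any of the 3 genes. BBX20 pointed the other way, with 9.24, 8.35 and 8.48 CPM in light-treated med12 and 11.7, 10.9 and 13.0 CPM in dark med12, a log2 fold change of -0.45 (adjusted p = 0.027) that stayed below 1.5-fold. BBX32 had 1, 1 and 2 counts in light-treated med12, against 1, 1 and 1 count in dark med12, a ratio of 1.43 with a 95% exact interval of 0.241 to 9.73, and BBX31 had 2, 2 and 2 counts, against 1, 1 and 1 count (2.14, 0.457 to 13.2). BBX30 had 1, 2 and 5 counts in light-treated med12, against 0, 0 and 1 count in dark med12, a ratio of 8.55 whose interval of 1.15 to 380 lies above 1. In CPM, all 3 were higher in every light-treated than in every dark library of med12. In counts, only BBX31 was separated. For BBX30 and BBX32 the lowest light-treated and the highest dark library both had 1 count, so the order in CPM came from library size. The share of all features separated between light-treated and dark med12 was not computed.

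**Figure D2:**
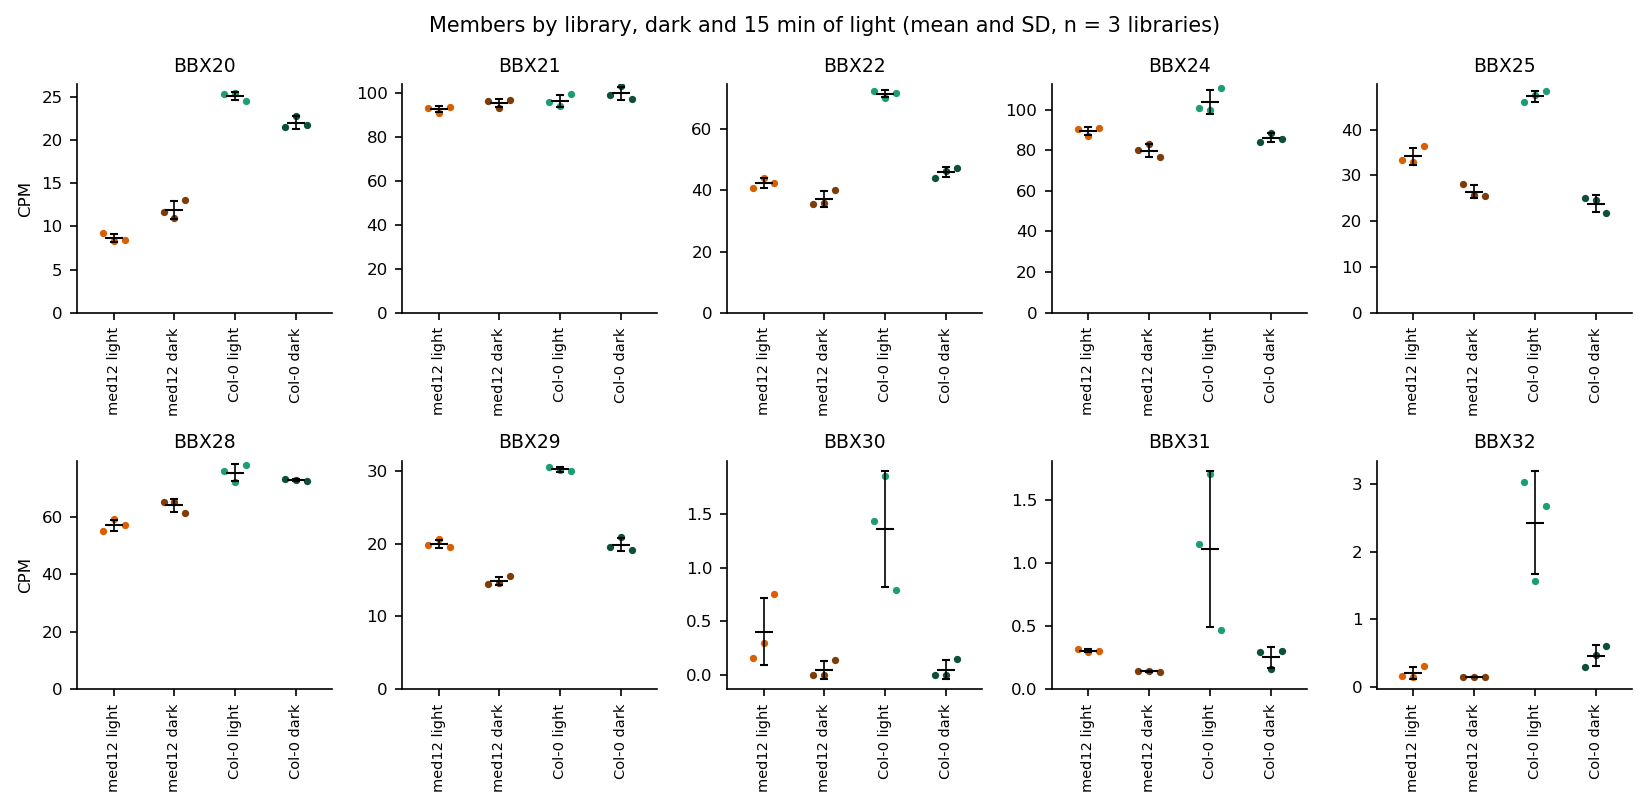
CPM (vertical axis, linear, a separate range for each member) of the 10 members in each library of the light experiment, in med12 after light, med12 in the dark, Col-0 after light and Col-0 in the dark, 3 libraries each. Points are libraries, and bars the mean and SD. Light-treated Col-0 lies above dark Col-0 in every panel except BBX21 and BBX28, whose libraries overlap. The share of all features separated in this way was not computed, so that count is no result about the members.

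Whether light acted differently in the 2 genotypes was tested as the difference between the effects, med12 minus Col-0, and 2 of 8 members were called, both lower, against 0.288% of all features called lower and 0.217% called higher. For BBX25 the light effect was smaller in med12 by 0.61 on the log2 scale (difference -0.61, SE 0.0850, adjusted p = 9.1e-05). For BBX20 the effects had opposite signs and differed by -0.64 (SE 0.133, adjusted p = 0.024), a call that DESeq2 did not make (adjusted p = 0.28). It was lost in 5 of the 12 fits leaving out 1 library (dark Col-0 replicate 1, dark med12 replicates 1 and 3, light-treated med12 replicates 2 and 3), with adjusted p from 0.054 to 0.15. The BBX25 call was lost in 3 of 12 (dark Col-0 replicate 3, dark med12 replicate 1, light-treated med12 replicate 2), where the difference was -0.58 to -0.55 and below 1.5-fold. BBX22 differed by -0.44 (adjusted p = 0.0012), below 1.5-fold. BBX32 had a wide difference of -1.88 with an SE of 1.21 (adjusted p = 0.72), so at 1 or 2 counts per med12 library no difference in its light effect could be shown. The differences of BBX21 (0.02), BBX24 (-0.10), BBX28 (-0.20) and BBX29 (-0.18) had adjusted p from 0.3 to 0.98.

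**Figure D3:**
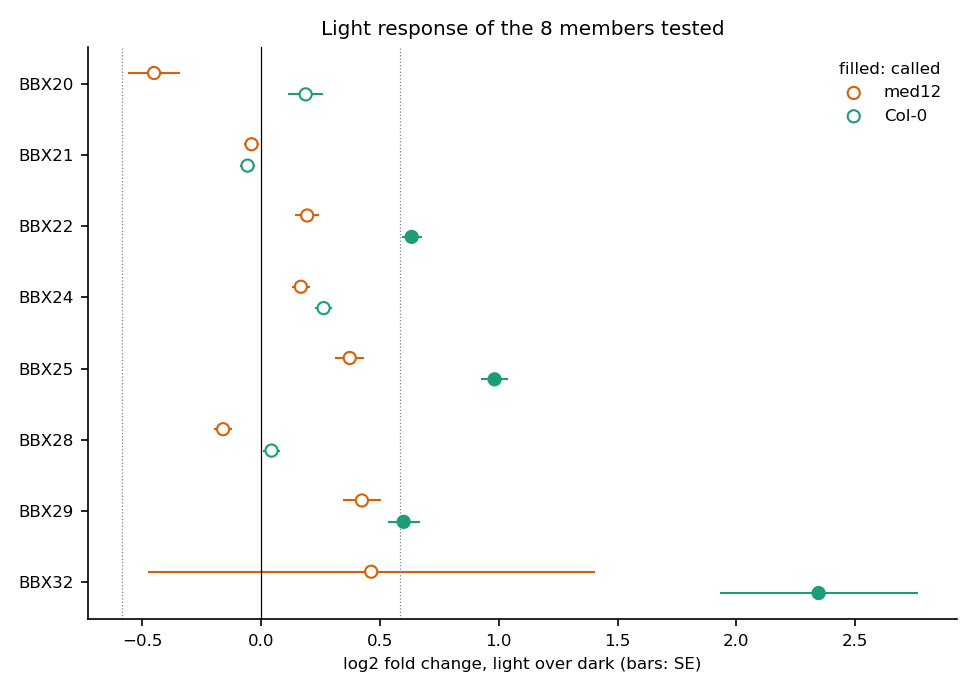
Log2 fold change after 15 min of light (horizontal axis, with bars of 1 SE) for the 8 members tested, with med12 above Col-0 in each row and dotted lines at 1.5-fold. Filled points are called, which are BBX22, BBX25, BBX29 and BBX32 in Col-0 and none in med12. The bars of BBX32 are the widest, with an SE of 0.941 in med12 and 0.416 in Col-0.

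Compared directly, med12 seedlings had less BBX20 than Col-0 both in the dark and after light. In the dark, 1 of 8 members was called lower and none higher, against 7.69% and 5.71% of all features. That member was BBX20, with 11.7, 10.9 and 13.0 CPM in med12 and 21.5, 22.8 and 21.7 CPM in Col-0 (log2 fold change -0.89, SE 0.0876, adjusted p = 1.3e-11). BBX29 (log2 fold change -0.42, adjusted p = 6.0e-04), BBX22 (-0.31, 7.5e-05) and BBX28 (-0.19, 0.0022) were below Col-0 by less than 1.5-fold, without overlap, and BBX25 (0.15, adjusted p = 0.18) was above. BBX32 had the widest gap and did not pass the test, with 1, 1 and 1 count in med12 and 2, 3 and 4 counts in Col-0 (log2 fold change -1.56, adjusted p = 0.12), a ratio of scaled sums of 0.313 with a 95% exact interval of 0.0544 to 1.25 and no overlap between the libraries.

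After light, 4 of 8 members were called lower in med12 and none higher, against 9.1% of all features lower and 5.06% higher. These were BBX20 (8.69 ± 0.482 CPM in med12 and 25.1 ± 0.460 CPM in Col-0, SD, n = 3 each, log2 fold change -1.53, SE 0.0926, adjusted p = 3.6e-18 in edgeR's quasi-likelihood test), BBX22 (-0.75, SE 0.0428, 5.3e-19), BBX29 (-0.59, SE 0.0677, 1.8e-09) and BBX32 (-3.44, SE 0.499, 1.8e-07). BBX32 had 4 counts over the 3 med12 libraries and 49 over the 3 Col-0 libraries, an 11.8-fold lower level by the scaled sums. The other tested members were below Col-0 by less than 1.5-fold, at log2 fold changes of -0.46 for BBX25, -0.39 for BBX28, -0.21 for BBX24 and -0.05 for BBX21. In all 10 members every med12 library was below every Col-0 library. The share of all features separated in this way was not computed, so that count is no result about the members. The call of BBX29, at 1.51-fold, was lost without light-treated Col-0 replicate 1 or med12 replicate 3 (log2 fold change -0.58 in each). The summed seed genes had 85.6 to 192 CPM in med12 and 0.149 to 0.630 CPM in Col-0 in the dark, and 28.4 to 39.2 CPM in med12 and 0.714 to 1.15 CPM in Col-0 after light, and their part in these differences was not tested. Of 8 genes of the circadian clock picked after their values were seen (CCA1, LHY, PRR9, PRR7, PRR5, TOC1, ELF4 and LUX), 2 were called lower in med12 in the dark and 4 after light, with none higher, and their median log2 fold change after light was -0.52, beside -0.53 over the 8 members tested and 0.00 over all features. Their part in the members' levels was not tested.

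HY5, the bZIP partner of these proteins, had 30.4, 31.3 and 32.3 CPM in light-treated Col-0, against 14.5, 14.8 and 16.3 CPM in dark Col-0 (log2 fold change 1.04, adjusted p = 6.2e-15). Its light effect was 0.35 in med12 (adjusted p = 0.04, below 1.5-fold) and differed between the genotypes by -0.69 (adjusted p = 0.0026). Its homologue HYH had a log2 fold change of 1.02 in Col-0 (adjusted p = 6.2e-09) and 0.35 in med12 (adjusted p = 0.1), with a difference of -0.67 that missed the threshold (adjusted p = 0.058). COP1, the ligase, had a log2 fold change of 0.00 in Col-0 (adjusted p = 0.99). Of 21 tested partners and regulators of the HY5 and COP1 pathway, 2 were called higher in Col-0, HY5 and HYH, and none in med12.

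Of the 22 other B-box genes, 18 could be tested, and 3 were called higher and 1 lower after light in Col-0. The clade IV gene BBX18 rose by 0.74 on the log2 scale (adjusted p = 3.0e-05), BBX16 by 1.17 and BBX3 by 0.94, and BBX17 fell by 0.77. BBX19, of clade IV, had a log2 fold change of 0.56 (adjusted p = 1.6e-07), below 1.5-fold, the clade V gene BBX27 had -0.21 and CONSTANS (BBX1) had 0.13 (adjusted p = 0.88). In med12, 1 of these 18, BBX17, was called lower and none higher. The light effect of BBX3 differed between the genotypes by -0.68 (adjusted p = 4.2e-07), the only such call among the other B-box genes.

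Seedlings after 24 h of darkness were also set against those of the same genotype in long days. These are 2 experiments, in which the dark treatment and the set of libraries cannot be told apart, so the values describe levels. In Col-0, 4 of 7 tested members were called higher in the dark than in long days and 1 lower, against 10.1% and 10.6% of all features. BBX28 had 73.2, 72.8 and 72.4 CPM in dark Col-0 and 2.39, 2.20, 1.45 and 3.02 CPM in long-day Col-0 (log2 fold change 4.999, SE 0.0927). BBX29 had 19.5, 20.95 and 19.2 CPM in dark Col-0 and 0.171, 0.157, 0.323 and 0.478 CPM in long-day Col-0, a ratio of scaled sums of 70.1 with a 95% exact interval of 33.7 to 175.

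BBX25 was higher in dark Col-0 by 3.42 and BBX24 by 1.76 on the log2 scale, and BBX20 was lower by a log2 fold change of -0.78 (adjusted p = 7.3e-09). The 4 members with the higher level in the dark all had their lowest or next to lowest group mean in long-day Col-0. In med12, 3 of 7 members were called higher in the dark, BBX25 (1.06), BBX28 (1.35) and BBX29 (3.19), and 1 lower, BBX22 (-0.89), against 8.07% and 10.3% of all features, and BBX24 had a log2 fold change of -0.07 (adjusted p = 0.31). Of the 8 clock genes, 4 were called higher and 2 lower in dark than in long-day Col-0, and 3 higher and 4 lower in med12. CCA1, the morning gene among them, had 122 ± 2.93 CPM in dark Col-0 and 0.561 ± 0.292 CPM in long-day Col-0 (SD, n = 3 and 4), and 97.3 ± 1.63 CPM in dark med12 and 5.64 ± 1.16 CPM in long-day med12. Their part in the members' levels was not tested.

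In long days, both Mediator mutants had more BBX24, BBX25 and BBX28 and less BBX20 than Col-0. In med12, 3 of the 6 members tested were called higher and 1 lower, against 7.66% and 5.12% of all features. In med13 the counts were again 3 higher and 1 lower of 6, against 7.16% and 6.27% of all features. The mutants share their 4 Col-0 libraries, so the 2 sets of values are not independent.

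BBX28 was the member furthest from Col-0. It had 35.1, 26.3, 21.6 and 17.5 CPM in med12 and 15.3, 20.1, 22.2 and 24.5 CPM in med13, against 2.39, 2.20, 1.45 and 3.02 CPM in Col-0. It was 11.1-fold higher in med12 (log2 3.47, SE 0.269, adjusted p = 7.9e-07) and 9.08-fold higher in med13 (log2 3.18, SE 0.273, adjusted p = 2.1e-06). The lowest mutant library had 15.3 CPM and the highest Col-0 library 3.02 CPM.

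BBX25 had 16.3, 12.7, 11.9 and 9.65 CPM in med12 and 6.63, 7.10, 6.26 and 7.01 CPM in med13, against 2.39, 2.35, 1.62 and 2.55 CPM in Col-0. The log2 fold change was 2.51 in med12 (SE 0.191, adjusted p = 7.1e-07) and 1.61 in med13 (SE 0.200, adjusted p = 4.1e-05). Its paralogue BBX24 had 93.9, 81.8, 80.5 and 80.5 CPM in med12 and 64.9, 66.4, 60.0 and 68.5 CPM in med13, against 22.7, 25.6, 22.9 and 30.7 CPM in Col-0, with log2 fold changes of 1.73 (SE 0.0827, adjusted p = 1.0e-08) and 1.36 (SE 0.0854, adjusted p = 1.4e-07). Both genes were separated from Col-0 in every library.

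BBX20 went the other way, with 7.28, 11.96, 12.9 and 18.6 CPM in med12 and 22.1, 21.3, 23.3 and 20.6 CPM in med13, against 39.5, 35.2, 39.6 and 37.7 CPM in Col-0. The log2 fold change was -1.57 in med12 (SE 0.168, adjusted p = 1.1e-05) and -0.78 in med13 (SE 0.155, adjusted p = 0.0014). BBX22 was above Col-0 by less than 1.5-fold, with 69.3 ± 3.14 CPM in med12 and 56.4 ± 2.63 CPM in med13, against 49.8 ± 2.06 CPM in Col-0 (SD, n = 4 each). BBX21 was slightly below, at log2 fold changes of -0.14 in med12 and -0.11 in med13. BBX29 had 3.56, 1.62, 0.477 and 0.818 CPM in med12 and at most 0.448 CPM in med13, against at most 0.478 CPM in Col-0, and like the other 3 scarce members was too low to be tested.

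In the same libraries, 4 of the 8 clock genes were called higher and none lower in each mutant, and CCA1 had 5.64 ± 1.16 CPM in med12 and 3.05 ± 0.696 CPM in med13, against 0.561 ± 0.292 CPM in Col-0. The summed seed genes had 6.38 to 205 CPM in med12 and 5.67 to 442 CPM in med13, against 0.471 to 1.37 CPM in Col-0. The part of either in the members' levels was not tested. Among the 18 other B-box genes tested, 4 were called higher and 2 lower in each mutant, and among 23 partners 5 higher and 1 lower in med12 and 4 higher and 5 lower in med13.

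**Figure D4:**
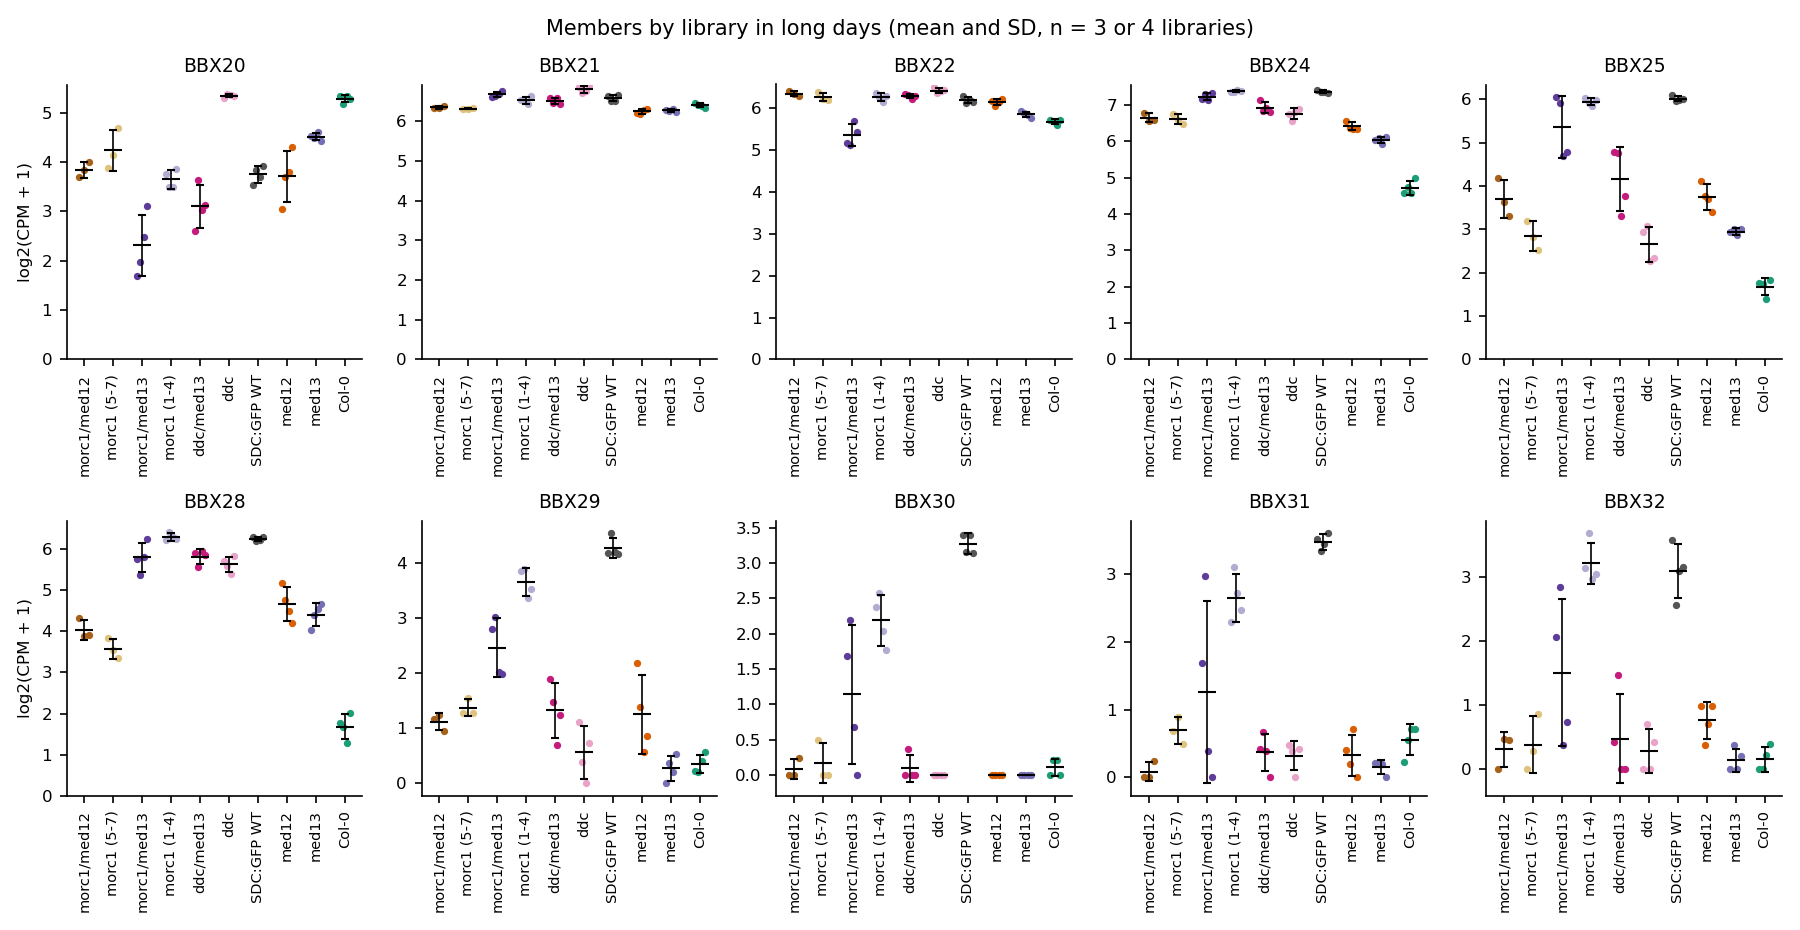
Log2(CPM + 1) of the 10 members (vertical axis) in each library of the 10 long-day groups, from morc1/med12 and its morc1 libraries (5 to 7) on the left to med12, med13 and Col-0 on the right. Points are libraries, and bars the mean and SD on that scale. BBX25 and BBX28 are lowest in Col-0, BBX20 is highest in ddc and Col-0, and BBX30, BBX31 and BBX32 reach above 1 CPM in the SDC:GFP wild type, the morc1 libraries 1 to 4 and some morc1/med13 libraries, and BBX32 also in 1 ddc/med13 library.

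The wild types of the 2 long-day series differed in most members. The SDC:GFP wild type had 7 of 10 members called higher and 1 lower than Col-0, against 11.7% of all features higher and 11.7% lower. BBX28 had 77.9, 72.6, 72.8 and 77.0 CPM in the SDC:GFP wild type, against 2.39, 2.20, 1.45 and 3.02 CPM in Col-0 (log2 fold change 5.03, SE 0.108, adjusted p = 1.8e-19), and BBX25 68.0, 61.3, 62.9 and 63.8 CPM, against 2.39, 2.35, 1.62 and 2.55 CPM (4.82, SE 0.110, adjusted p = 4.0e-19). BBX24 was higher by 2.67 on the log2 scale, and BBX20 was lower, with 10.5, 13.4, 11.98 and 14.1 CPM in the SDC:GFP wild type and 39.5, 35.2, 39.6 and 37.7 CPM in Col-0 (-1.60, SE 0.0951, adjusted p = 3.4e-12).

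BBX29 and the 3 scarcest members were at or near 0 in long-day Col-0 and well above it in the SDC:GFP wild type. The ratios of scaled sums, SDC:GFP wild type over Col-0, were 64.9 for BBX29 (95% exact interval 30.99 to 163), 107 for BBX30 (29.03 to 897), 63.3 for BBX32 (21.05 to 312) and 20.9 for BBX31 (11.6 to 41.5). BBX30 had 29, 26, 32 and 26 counts in the SDC:GFP wild type libraries. CCA1 had 115 ± 5.49 CPM in the SDC:GFP wild type and 0.561 ± 0.292 CPM in Col-0 (SD, n = 4 each), and of the 8 clock genes 4 were called higher and 3 lower. Transgene and library set cannot be told apart in this comparison. Each double mutant is therefore set only against its control from the same series.

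Loss of MORC1 was tested in morc1 libraries 1 to 4 against the SDC:GFP wild type, and 3 of 10 members were called lower and none higher, against 1.37% and 1.19% of all features. The 3 were all of clade V. BBX30 had 4.19, 4.99, 3.10 and 2.41 CPM in morc1 and 9.53, 7.89, 9.59 and 7.82 CPM in the SDC:GFP wild type (log2 fold change -1.24, SE 0.231, adjusted p = 8.9e-04). BBX31, its closest relative, had 3.89, 7.63, 5.58 and 4.53 CPM in morc1 and 10.5, 9.11, 9.89 and 11.1 CPM in the SDC:GFP wild type (-0.91, SE 0.207, adjusted p = 0.0049).

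BBX29 had 13.5, 13.8, 9.30 and 10.6 CPM in morc1 and 17.1, 22.2, 17.4 and 16.9 CPM in the SDC:GFP wild type (-0.64, SE 0.152, adjusted p = 0.0063), and that call was lost without morc1 replicate 3 (-0.55) or SDC:GFP wild type replicate 2 (-0.54). None of the 3 genes overlapped between the groups, and the share of all features so separated was not computed. BBX32, as scarce as BBX30 and BBX31, overlapped, with 7.78, 11.7, 6.82 and 7.24 CPM in morc1 and 10.8, 4.86, 7.49 and 7.82 CPM in the SDC:GFP wild type, and the 7 members not called had adjusted p from 0.56 to 0.98. None of the 8 clock genes was called in this comparison. Set against the Col-0 long-day libraries instead, 8 of 10 members were called higher in morc1 libraries 1 to 4 and 1 lower, against 12.2% and 11.3% of all features, with BBX29, BBX30 and BBX31 higher by 5.27, 5.12 and 3.42 on the log2 scale.

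The morc1 libraries 5 to 7, which served as control of morc1/med12, gave other values than libraries 1 to 4 for most members. BBX25 had 8.20, 6.05 and 4.73 CPM in libraries 5 to 7 and 64.4, 59.6, 56.4 and 62.8 CPM in libraries 1 to 4, and BBX28 had 13.3, 10.6 and 9.26 CPM in libraries 5 to 7 and 73.6, 84.8, 77.5 and 74.2 CPM in libraries 1 to 4. BBX29 had 1.44, 1.95 and 1.44 CPM in libraries 5 to 7, and BBX30 had 0.410, 0 and 0 CPM. Fitted against the SDC:GFP wild type in place of libraries 1 to 4, a choice made after seeing the data, libraries 5 to 7 had 7 of 10 members called lower and 1 higher, against 7.14% and 9.36% of all features. The log2 fold change was then -3.46 for BBX29 (adjusted p = 9.5e-08), -5.64 for BBX30 (adjusted p = 1.3e-06) and -3.92 for BBX31 (adjusted p = 3.5e-07), and BBX24 (-0.72), BBX25 (-3.29), BBX28 (-2.72) and BBX32 (-4.31) were also called lower and BBX20 (0.59) higher. BBX29, BBX30 and BBX31 were lower with either set of morc1 libraries, by amounts that differed by more than 1.5-fold, and the calls of the other 5 depended on the set. In the fit of libraries 5 to 7, library set and loss of MORC1 cannot be told apart, so it is no second test of the morc1 calls. CCA1 had 3.96 ± 0.445 CPM in libraries 5 to 7 and 103 ± 15.3 CPM in libraries 1 to 4 (SD, n = 3 and 4), and its part was not tested.

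In ddc, which lacks 3 DNA methyltransferases, 7 of 10 members were called lower and 1 higher than in the same SDC:GFP wild type, against 14.8% and 12.4% of all features. BBX20 was the one that was higher, with 38.3, 40.7, 39.7 and 39.3 CPM in ddc and 10.5, 13.4, 11.98 and 14.1 CPM in the SDC:GFP wild type (log2 fold change 1.66, SE 0.112, adjusted p = 5.7e-08). BBX25 fell to 6.65, 7.46, 3.83 and 4.03 CPM in ddc, against 68.0, 61.3, 62.9 and 63.8 CPM in the SDC:GFP wild type (-3.52, SE 0.146, adjusted p = 9.0e-10). Its paralogue BBX24 fell by 0.60 on the log2 scale (adjusted p = 3.0e-06) and BBX28 by 0.61 (adjusted p = 3.5e-05), each just past 1.5-fold. Without ddc replicate 2 the change of BBX24 was -0.54, and without ddc replicate 3 that of BBX28 was -0.55, both below 1.5-fold.

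The other clade V genes of the group, BBX29, BBX30, BBX31 and BBX32, were nearly absent in ddc. BBX30 had no count in any of the 4 ddc libraries and was at least 26.9-fold lower than in the SDC:GFP wild type by the near end of the 95% exact interval (adjusted p = 1.4e-06 in edgeR's quasi-likelihood test). BBX31 had 1, 1, 0 and 1 count and BBX32 had 0, 2, 0 and 1 count in ddc, 39.3-fold (95% exact interval 13.2 to 193) and 29.8-fold (9.91 to 147) below the SDC:GFP wild type. BBX29 had 1.17, 0.311, 0 and 0.672 CPM in ddc and 17.1, 22.2, 17.4 and 16.9 CPM in the SDC:GFP wild type, 35.6-fold lower (16.1 to 98.0). BBX21 and BBX22 were slightly above, at log2 fold changes of 0.23 and 0.24.

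CCA1 had 14.3 ± 7.09 CPM in ddc and 115 ± 5.49 CPM in the SDC:GFP wild type (SD, n = 4 each), and of the 8 clock genes 3 were called lower, CCA1, LHY and PRR9, and 4 higher, PRR5, TOC1, ELF4 and LUX. Their part in these levels was not tested. Of 18 other B-box genes tested, 8 were called higher and 5 lower in ddc, and of 23 partners 1 higher and 12 lower. Against the Col-0 long-day libraries, 4 of 6 members tested were called higher in ddc and none lower, against 7.71% and 10.4% of all features, among them BBX24 by 2.08, BBX25 by 1.31 and BBX28 by 4.43 on the log2 scale, while BBX20 had 0.08 (adjusted p = 0.43). The direction of these members in ddc thus turned with the choice of wild type. The comparisons of morc1 and ddc share the SDC:GFP wild-type libraries.

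The Mediator mutations were also made in these lines. In morc1/med12 against morc1 (libraries 5 to 7), none of the 6 members tested was called by edgeR, which gave an unadjusted p under 0.05 for 2 of 6, while DESeq2 called 1 higher. Over all features, edgeR called 1.74% higher and 3.75% lower. The shares at the unadjusted cut-off and with DESeq2 were not computed. BBX25 had 17.1, 11.3 and 8.94 CPM in morc1/med12, against 8.20, 6.05 and 4.73 CPM in morc1 (log2 fold change 0.96, adjusted p = 0.058), without overlap. BBX28 had 18.98, 13.7 and 14.2 CPM in morc1/med12, against 13.3, 10.6 and 9.26 CPM in morc1 (0.48, adjusted p = 0.13). MED12 itself had 142 to 151 CPM in morc1/med12 and 124 to 136 CPM in morc1, which a frame shift need not lower. The summed seed genes had 10.6 to 152 CPM in morc1/med12, against 0.206 to 7.35 CPM in morc1, and their part was not tested.

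In morc1/med13 against morc1 (libraries 1 to 4), 4 of 9 members tested were called lower and none higher, against 11.3% and 7.6% of all features. BBX20 had 2.21, 2.93, 4.57 and 7.61 CPM in morc1/med13, against 12.6, 10.3, 10.2 and 13.6 CPM in morc1 (log2 fold change -1.43, SE 0.307, adjusted p = 0.0043). BBX22 had 34.8, 33.5, 50.2 and 42.0 CPM in morc1/med13, against 80.5, 75.1, 69.4 and 76.1 CPM in morc1 (-0.90, SE 0.119, adjusted p = 2.7e-04). Both genes were lower in every library of the double mutant, as was BBX29, with 6.01, 7.16, 3.04 and 2.98 CPM in morc1/med13, against 13.5, 13.8, 9.30 and 10.6 CPM in morc1 (-1.29, SE 0.280, adjusted p = 0.0044).

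BBX32 had 3.16, 6.18, 0.304 and 0.662 CPM in morc1/med13, against 7.78, 11.7, 6.82 and 7.24 CPM in morc1 (-1.70, SE 0.537, adjusted p = 0.027). The 4 morc1/med13 libraries fell into 2 pairs for several members: BBX25 had 65.5 and 59.9 CPM in libraries 1 and 2 and 24.96 and 26.8 CPM in libraries 3 and 4, and BBX31 had 2.21 and 6.83 CPM in libraries 1 and 2 and 0.304 and 0 CPM in libraries 3 and 4. CCA1 had 130 and 134 CPM in libraries 1 and 2, against 80.1 and 62.6 CPM in libraries 3 and 4. Without libraries 3 and 4 the log2 fold change of BBX32 was -0.85 and missed the threshold (adjusted p = 0.058), as it did without morc1 replicate 1, 2 or 4 or morc1/med13 replicate 3 alone (adjusted p from 0.051 to 0.085). Without libraries 1 and 2 the number of members called lower was 7, and the share of all features called in that fit was not computed. Leaving out either pair of libraries was chosen after seeing the data. The summed seed genes had 36.4 to 639 CPM in morc1/med13, against 3.29 to 16.9 CPM in morc1, and their part was not tested.

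In ddc/med13 against ddc, 1 of 6 members tested was called higher and 1 lower, against 7.9% and 7.1% of all features. BBX20 had 5.09, 11.5, 7.10 and 7.72 CPM in ddc/med13, against 38.3, 40.7, 39.7 and 39.3 CPM in ddc (log2 fold change -2.30, SE 0.182, adjusted p = 9.8e-06). BBX25 had 26.5, 26.2, 8.95 and 12.7 CPM in ddc/med13, against 6.65, 7.46, 3.83 and 4.03 CPM in ddc (1.75, SE 0.377, adjusted p = 0.0046). BBX24 (0.19) and BBX28 (0.20), higher in med13 alone, overlapped between these groups (adjusted p = 0.11 and 0.19). CCA1 had 36.2 ± 4.45 CPM in ddc/med13 and 14.3 ± 7.09 CPM in ddc, and the summed seed genes 1.23 to 92.8 CPM in ddc/med13 and 0 to 2.18 CPM in ddc, and the part of either was not tested.

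**Figure D5:**
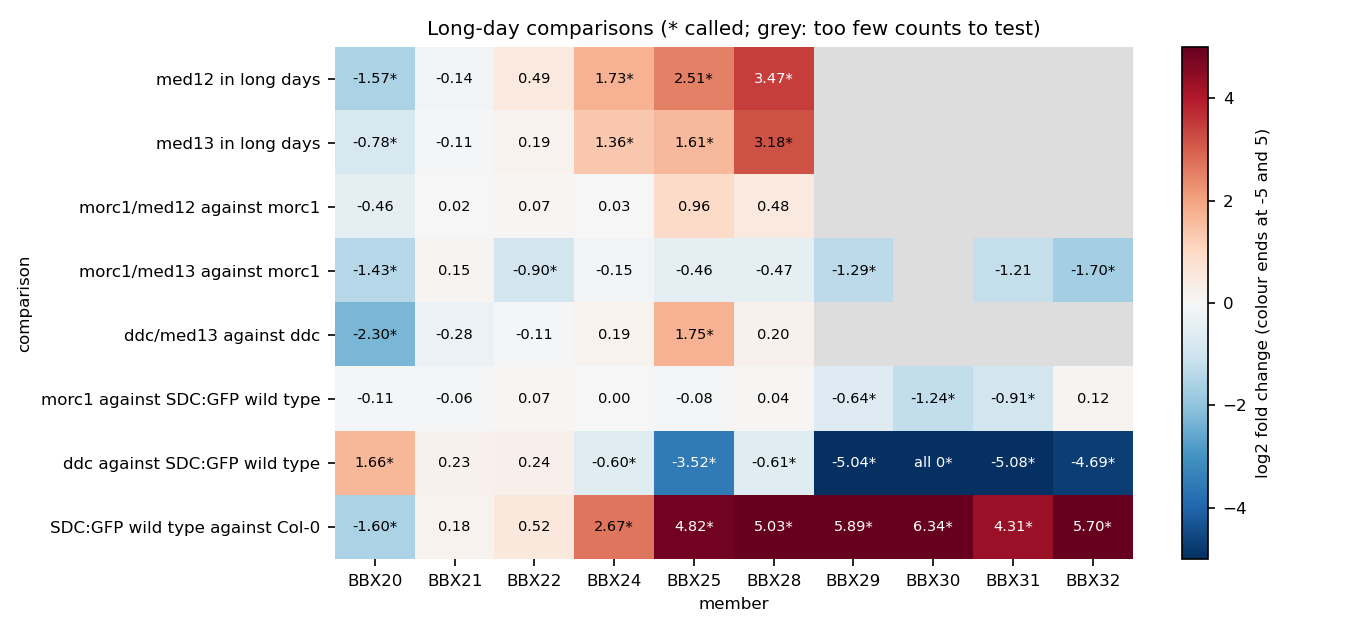
Log2 fold change (colour scale) of the 10 members, in columns, in 8 comparisons, in rows, each line over its control. Asterisks mark called members, grey cells were too low to be tested, and the cell of BBX30 in ddc is marked because all 4 ddc libraries had 0 counts. BBX20 is lower in both single Mediator mutants and in both med13 double mutants and higher in ddc, and BBX24, BBX25 and BBX28 are called higher in med12 and med13.

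The effects of the Mediator mutations in the 2 backgrounds were compared as differences, the effect in the double mutant minus that in the single mutant. For med12, 3 of 6 members were called lower and 1 higher, against 4.67% and 1.38% of all features. The difference was -2.98 for BBX28 (SE 0.369, adjusted p = 8.2e-05), -1.70 for BBX24 (SE 0.128, adjusted p = 9.0e-07) and -1.54 for BBX25 (SE 0.376, adjusted p = 0.014). It was 1.12 for BBX20 (SE 0.326, adjusted p = 0.034), and that call was lost in 8 of the 14 fits leaving out 1 library (long-day Col-0 replicate 1, 3 or 4, long-day med12 replicate 2, morc1 replicate 5 or 6, morc1/med12 replicate 2 or 3), with adjusted p from 0.052 to 0.11.

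For med13 in the morc1 background, 4 of 10 members were called lower and none higher, against 5.19% and 3.85% of all features, with differences of -3.61 for BBX28 (SE 0.291, adjusted p = 3.8e-07), -2.02 for BBX25 (SE 0.452, adjusted p = 0.0041), -1.46 for BBX24 (SE 0.0985, adjusted p = 5.3e-08) and -1.05 for BBX22 (SE 0.124, adjusted p = 2.1e-05). For med13 in the ddc background, 3 of 6 were called lower and none higher, against 4.87% and 5.59% of all features, with -2.96 for BBX28 (SE 0.250), -1.49 for BBX20 (SE 0.175) and -1.15 for BBX24 (SE 0.128). BBX24 and BBX28 were called in all 3 of these comparisons. In each, the allele or the way it was introduced, the transgene and the control level of the gene changed with the background and cannot be told apart. The level was far from equal: BBX28 had 77.5 ± 5.12 CPM in morc1 libraries 1 to 4, 48.8 ± 6.32 CPM in ddc and 11.1 ± 2.07 CPM in morc1 libraries 5 to 7, against 2.27 ± 0.647 CPM in long-day Col-0 (SD, n = 4, 4, 3 and 4).

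Across the 14 group means, each member's most similar gene was sought among 22712 features as a description, since groups share sets of libraries and conditions. BBX30 and BBX31 were most like each other (Pearson r of log2(CPM + 1) = 0.979), and BBX30 was also the closest match of BBX32 (0.949). BBX29 was closest to the clade IV gene BBX19 (0.986), BBX24 to the light-harvesting gene LHCB2.1 (0.973), BBX25 to the NF-Y subunit gene NF-YA4 (0.957), BBX28 to AT3G54500 (0.974), BBX20 to AT5G01215 (0.955), BBX21 to the auxin carrier gene AUX1 (0.974) and BBX22 to the thioredoxin gene TH9 (0.900). After duplicate removal, the shoot marker LHCB1.3 had 686 to 773 counts in every library, while library totals ran from 2767761 to 6786822. Its CPM therefore depended on depth, which differed between sets of libraries. The part of depth in the match of BBX24 to LHCB2.1 was not tested. Between members, BBX25 correlated with BBX29 (0.856), BBX28 (0.832) and its paralogue BBX24 (0.739), and negatively with BBX20 (-0.593).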

How the data were processed

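Counts per gene and transposable element in 50 libraries of polyA mRNA were deposited by the authors as raw htseq-count output, with no normalization. According to the study's methods and the submitters' processing notes, single-end reads were trimmed with Trim Galore and checked with FastQC, aligned to TAIR10 with STAR, freed of duplicates with Picard and counted by strand with HTSeq 0.6.1 on Araport11. Removing duplicates from single-end reads compresses high counts. Summary rows were left out of totals and tests, and no column of authors' comparisons was used. Libraries held 2767761 to 6786822 counts, and 95% intervals cover counting error only.

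Groups came from the labels. Features were filtered by group with filterByExpr and scaled with TMM, and tested with edgeR 4.0.16 (R 4.3.3) in its quasi-likelihood test with Benjamini-Hochberg adjustment over all features tested. A feature was called at over 1.5-fold and an adjusted p under 0.05. The light and genotype comparisons of each experiment were fitted as the study's groups, and scripts were tested on simulated data. Alternatives were RLE size factors, no filter, DESeq2 1.42.0, a replicate block, fits of only the groups compared, Col-0 as control and leaving out each library. Ratios of scarce genes are ratios of summed counts over summed scaled library sizes, with Clopper-Pearson intervals.

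The genes named were the 10 members, BBX18, BBX19, BBX23, BBX26, BBX27, CONSTANS, HY5, HYH and COP1, other listed genes where called after light in Col-0, and for each member the gene most alike over the 14 groups. BBX23 and BBX26 were too low to be tested after light. The members and lists were chosen with earlier results of these data known, and the 8 clock genes were picked after values were seen. Promoters and proteins come from RefSeq TAIR10.1.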

Additional observations from a re-analysis of the deposited data

Results flagged for a closer look

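In 4 of the 77 groups of 4 libraries checked, 1 library lay far from the others for a member, and chance gives about 1 in 20 such groups. BBX24 had 93.9 CPM in med12 in long days replicate 1, against 80.5 to 81.8 CPM in the other replicates. BBX29 had 22.2 CPM in SDC:GFP wild type replicate 2, against 16.9 to 17.4 CPM in the others. BBX30 had 1 count (0.295 CPM) in ddc/med13 replicate 2 and 0 in the others, and BBX31 had 0 CPM in med13 in long days replicate 4, against 0.148 to 0.154 CPM in the others.

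Effects that differed between genotypes or backgrounds, by a test of the difference itself in edgeR, were found for 5 members. The light effect, med12 minus Col-0, differed by -0.64 for BBX20 and -0.61 for BBX25 on the log2 scale. The med12 effect, morc1 background minus Col-0, differed by 1.12 for BBX20, -1.70 for BBX24, -1.54 for BBX25 and -2.98 for BBX28. The med13 effect differed in the morc1 background by -1.05 for BBX22, -1.46 for BBX24, -2.02 for BBX25 and -3.61 for BBX28, and in the ddc background by -1.49 for BBX20, -1.15 for BBX24 and -2.96 for BBX28.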

How the results depend on the processing

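Of the members' calls, 64 of 64 were made again with RLE size factors, 64 of 64 without a filter on low counts and 63 of 64 with DESeq2, the exception being BBX20 in the light by genotype difference, where DESeq2 called 1 member. The replicate block, whose same-number correlations ran from -0.0707 to 0.134 and gave no pairing, changed no count in the 16 comparisons it could be fitted in (4 members for light in Col-0, as without it). No paired analysis was possible because no numbers are shared for morc1/med12 against morc1, and hence for the med12 effect by background. In morc1/med12 against morc1, 1 member was called without a filter and 1 with DESeq2. With Col-0 in long days as control, 9 members were called for morc1 libraries 1 to 4 (8 higher, against 12.2% of all features), with BBX29 at 5.27, BBX30 at 5.12 and BBX31 at 3.42, and 4 for ddc (all higher, against 7.71% of all features), with BBX24 at 2.08, BBX25 at 1.31 and BBX28 at 4.43. Other alternatives were added after seeing the data. With the libraries of a group summed, 2 members were past 1.5-fold for med12 in the dark, and without morc1/med13 libraries 1 and 2, 7 members were called for morc1/med13. The share of all features was not computed for either. With morc1 libraries 5 to 7 in place of 1 to 4, 8 members were called for morc1 (7 lower). Leaving out each library gave 0 to 2 members for the light by genotype difference and 0 to 1 for morc1/med12. Causes were not tested. Ranked per kb of coding sequence in place of exon, 6 of 10 members kept their place. Depth limited BBX30, BBX31 and BBX32 most.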
